A study of Mus musculus with 26 samples.

Results

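RNA of 10 genes of the BCL2 family, the regulators of mitochondrial apoptosis, was measured in haematopoietic stem cells (HSCs), the bone marrow cells that renew themselves and supply every blood lineage. The genes were taken by symbol from a table of 23416 genes. They were 3 survival genes, Bcl2, Bcl2l1 and Mcl1, and 7 death-promoting genes, Bcl2l11, Bbc3, Bid, Bad, Pmaip1, Bax and Bak1. HSCs had been sorted from mouse bone marrow and made into Smart-Seq2 libraries, full-length cDNA libraries suited to few cells. The groups were JAK2V617F with Ezh2 loss (double mutant, n = 7 libraries), Ezh2 loss alone (n = 7), JAK2V617F alone (n = 7) and control (n = 5). Age, strain, cells per library, the alleles and promoters behind each genotype, and whether libraries came from separate mice, are absent from the labels. The p-values therefore cover only library-to-library spread, which may be technical.

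JAK2V617F is the activating mutation of the JAK2 kinase found in most myeloproliferative neoplasms, and Ezh2 encodes the catalytic subunit of Polycomb repressive complex 2, which methylates histone H3 at lysine 27. Survival members of the BCL2 family hold the effectors BAX and BAK in check at the mitochondrial outer membrane. The BH3-only members, which share just a short helix with the rest, bind the survival proteins or the effectors and so release cytochrome c and start the caspases. In blood cells JAK2 acts through STAT5, which is known to raise Bcl2l1, and through kinases that lower or modify BH3-only proteins. MCL1 is the survival member that HSCs are known to need most.

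Titles of 15 libraries carry their number before the group code (number-first), and those of 11 carry it after (number-last). The labels do not say what the difference is, and it runs across genotype: 7 of 7 double-mutant, 2 of 7 Ezh2 loss, 2 of 7 JAK2V617F and 4 of 5 control libraries were number-first. The double mutant and the number-first style can therefore be told apart only if the style acts alike in every genotype, which is what the fits assume. Estimated depth per library was 17.3 to 29.2 M reads (megareads) in double-mutant, 7.82 to 24.9 M in Ezh2 loss and 12.2 to 20.3 M in control libraries, and averaged 13.5 M in JAK2V617F libraries. Depth also ran along with title style, from 14.2 to 29.2 M in number-first and 7.82 to 18.2 M in number-last libraries. Its part in the style results was not tested. All 14 HSC markers had a median of at least 1 RPKM (reads of a gene divided by its length in kilobases and by library size) in each group. The summed RPKM of 12 neutrophil markers was 47.0 to 52128 in double-mutant (median 604), 405 to 38201 in Ezh2 loss (median 14675), 72.9 to 17660 in JAK2V617F (median 86.2) and 43.5 to 388 in control libraries (median 71.7). Erythroid markers summed to at most 6191 RPKM in Ezh2 loss and 37.9 RPKM in control libraries. In bulk RNA of this kind, fewer cells of a type and less RNA per cell cannot be told apart. For Ezh2 RNA the additive effect of Ezh2 loss was -0.57 in log2 (SE 0.28, limma adjusted p = 0.592). For Jak2 RNA the additive effect of JAK2V617F was -0.70 (SE 0.37, limma adjusted p = 0.906). Neither passed, so these RNA levels do not check the labels. Total Jak2 RNA does not show a point mutation, and the Ezh2 allele and the mutant base were not analysed here.

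Promoter sequences of 4 members are shown because the results turn on their RNA: Bbc3 and Bcl2l1 differed most between title styles among the members, Bcl2 differed in the opposite direction, and Bcl2l11 and Bbc3 are background targets of FOXO factors, which JAK2 signalling restrains. Each is the 250 bases before an annotated start in RefSeq (GRCm38.p6), 5′ to 3′ along the gene. They lie at chr2:152831729-152831978 (minus strand) for Bcl2l1, chr7:16310011-16310260 (plus strand, in an intron of a longer transcript) for Bbc3, chr1:106714291-106714540 (minus strand) for Bcl2 and chr2:128125788-128126037 (plus strand) for Bcl2l11. Capitals mark the FOXO letters TGTTTAC on either strand. Bcl2l1, Bbc3 and Bcl2l11 have other annotated starts that are not shown. For Bbc3 and Bcl2l11 the window shown is the one that holds these letters, and their other windows do not.
Bcl2l1: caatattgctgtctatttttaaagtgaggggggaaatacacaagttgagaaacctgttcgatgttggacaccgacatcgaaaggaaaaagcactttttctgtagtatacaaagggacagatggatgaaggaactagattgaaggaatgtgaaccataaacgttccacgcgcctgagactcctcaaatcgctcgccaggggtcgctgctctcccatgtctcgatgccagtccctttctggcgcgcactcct
Bbc3: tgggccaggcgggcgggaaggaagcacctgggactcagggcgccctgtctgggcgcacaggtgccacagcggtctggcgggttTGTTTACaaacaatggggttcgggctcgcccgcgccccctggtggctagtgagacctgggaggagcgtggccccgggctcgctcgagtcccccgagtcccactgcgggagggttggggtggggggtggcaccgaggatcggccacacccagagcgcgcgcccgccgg
Bcl2: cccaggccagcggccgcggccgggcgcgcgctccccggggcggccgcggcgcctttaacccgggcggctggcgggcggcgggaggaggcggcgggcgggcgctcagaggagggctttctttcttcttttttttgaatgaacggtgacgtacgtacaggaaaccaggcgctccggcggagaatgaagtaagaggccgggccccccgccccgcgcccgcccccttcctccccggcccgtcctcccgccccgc
Bcl2l11: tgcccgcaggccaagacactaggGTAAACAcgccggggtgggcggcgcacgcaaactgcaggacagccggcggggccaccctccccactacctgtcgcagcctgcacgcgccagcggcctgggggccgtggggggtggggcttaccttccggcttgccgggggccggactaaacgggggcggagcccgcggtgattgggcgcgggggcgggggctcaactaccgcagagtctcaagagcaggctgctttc

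RefSeq held 15 such windows for 9 of the 10 members, and none for Pmaip1. The STAT letters TTCNNNGAA, which read the same on both strands and do not overlap the FOXO letters, stood in 0 of the 15 windows, against 7.02% of 32851 windows of all genes. The FOXO letters stood in 2 of the 15, against 3.17% of all windows. They began 227 bases before the Bcl2l11 start and 167 bases before the Bbc3 start used for the windows shown. GC content of the 4 windows was 47.6% for Bcl2l1, 72.4% for Bbc3, 74.8% for Bcl2 and 72% for Bcl2l11.

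The death-promoting genes Bax and Bid and the survival gene Mcl1 were the most abundant members per kilobase. Over the 26 libraries Bax, an effector that forms the outer membrane pore, averaged 119.6 ± 39.3 RPKM (SD, n = 26). Bid, the BH3-only protein that caspase-8 cuts, averaged 64.2 ± 21.7 RPKM, Mcl1 52.4 ± 27.8 RPKM, and Bad, a BH3-only protein silenced by phosphorylation, 35.1 ± 15.3 RPKM (SD, n = 26 each). Below these came the survival genes Bcl2l1 (15.5 ± 11.5 RPKM) and Bcl2 (7.62 ± 4.28 RPKM). Bbc3, which encodes PUMA, and Bak1, the second effector, averaged 4.28 ± 4.40 and 2.21 ± 2.07 RPKM. Pmaip1, which encodes NOXA, the partner of MCL1, averaged 1.12 ± 2.49 RPKM with 0 reads in 16 libraries, and Bcl2l11, which encodes BIM, averaged 0.747 ± 1.14 RPKM with 0 reads in 11 libraries. Of the 9 neighbouring pairs in this order, 2 differed in mean by more than the SD of either gene, Bax over Bid and Bad over Bcl2l1, each in 23 of 26 libraries. Bid exceeded Mcl1 in 13 of 26 libraries, so their order was not settled. Pmaip1 exceeded Bcl2l11 in 9 of 26 libraries although its mean was higher. All 10 members had at least 1 RPKM in at least 5 libraries and were tested among 12116 genes.

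**Figure D1:**
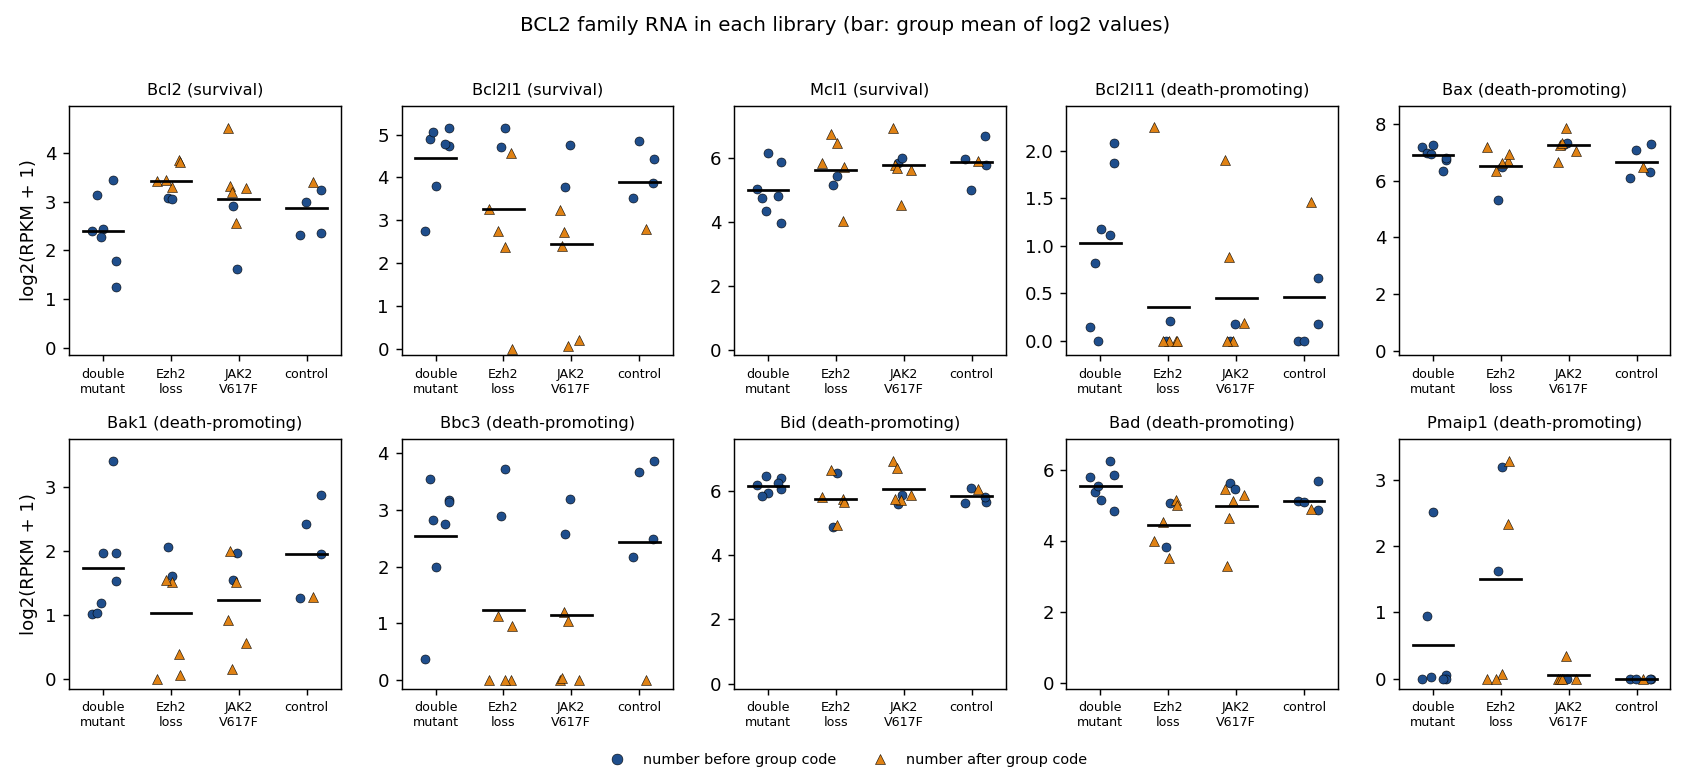
Level of each of the 10 BCL2 family members as log2(RPKM + 1) in each library, by genotype from double mutant to control; circles are number-first and triangles number-last libraries, and bars are group means of the log2 values. Bcl2l1 and Bbc3 split by title style within genotypes, while for Bax, Bid and Mcl1 the styles overlap.

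None of the 10 members passed in any of the 8 genotype comparisons (limma on log2(RPKM + 1) with title style as a covariate, adjusted p under 0.05). For the additive JAK2V617F effect, which uses all 26 libraries, 0 of 10 members passed against 0% of all tested genes, and 1 of 10 had an unadjusted p under 0.05 against 5.46%. For the additive Ezh2 loss effect 0 of 10 passed against 0.0578% of all genes, and 1 of 10, Pmaip1, had an unadjusted p under 0.05 against 8.44%. In the comparisons of groups, 0 of 10 members passed for JAK2V617F against control (background 0%), Ezh2 loss against control (0%), double mutant against control (0.00825%), double mutant against JAK2V617F (0.033%), double mutant against Ezh2 loss (0%) and the interaction (0%). At an unadjusted p under 0.05 the counts were 0 of 10 for JAK2V617F against control (background 4.14%), 1 of 10, again Pmaip1, for Ezh2 loss against control (6.07%) and 0 of 10 for the double mutant against control (6.17%). They were 0 of 10 for the double mutant against JAK2V617F (8.06%), 4 of 10, with Pmaip1 among them, for double mutant versus Ezh2 loss (7.84%) and 0 of 10 for the interaction (6.09%). Pmaip1 met the filter on low values only through libraries with Ezh2 loss, so the counts that name it are descriptions and support no result. Bcl2l11, also among the 4 of 10, met it only through double-mutant libraries, so the same holds for its part in that count. By title style, 4 of 10 members passed, against 19.2% of all tested genes, and 5 of 10 had an unadjusted p under 0.05, against 30.9%.

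No survival member passed for JAK2V617F, and the fitted additive effect was negative for all 3. Bcl2, which anchors to mitochondria and the endoplasmic reticulum and sequesters BIM, had 1.39, 4.28 and 9.90 RPKM as lowest, median and highest in double-mutant, 7.31, 9.67 and 13.4 RPKM in Ezh2 loss, and 2.09, 8.22 and 21.9 RPKM in JAK2V617F libraries. In control libraries it had 3.95, 7.01, 4.14, 8.45 and 9.54 RPKM. The groups overlapped, the lowest value being in the double mutant and the highest in JAK2V617F. The additive JAK2V617F effect on Bcl2 was -0.34 (SE 0.28, 95% interval -0.91 to 0.23, limma adjusted p = 0.947). In number-first libraries Bcl2 averaged 4.74 ± 2.82 RPKM with JAK2V617F (n = 9) and 6.39 ± 1.88 RPKM without it (n = 6), and in number-last libraries 10.6 ± 6.57 RPKM with it (n = 5) and 10.7 ± 1.98 RPKM without it (n = 6). These sets differ in Ezh2 genotype. Of number-first libraries 7 of 9 with JAK2V617F and 2 of 6 without it carried Ezh2 loss. Of number-last libraries 0 of 5 with JAK2V617F and 5 of 6 without it did. Bcl2 lies on GRCm38 chromosome 1 from 106538178 to 106714274, minus strand.

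Bcl2l1 encodes BCL-XL, the survival protein of erythroid precursors and platelets. Its RPKM was 5.71, 26.4 and 34.4 as lowest, median and highest in double-mutant, 0, 8.54 and 34.7 in Ezh2 loss, and 0.0382, 5.62 and 25.9 in JAK2V617F libraries, and 10.4, 27.7, 20.7, 13.7 and 5.99 in control libraries. All groups overlapped widely. A library with 0 reads (Ezh2 loss replicate 7) and libraries with 1 and 3 reads (JAK2V617F replicates 4 and 7) stood at the low end, all number-last. The additive JAK2V617F effect was -0.35 (SE 0.42, 95% interval -1.21 to 0.51, limma adjusted p = 0.966), an interval that holds both a rise and a fall. Within number-first libraries Bcl2l1 averaged 22.8 ± 9.91 RPKM with JAK2V617F (n = 9) and 22.1 ± 9.05 RPKM without it (n = 6). Within number-last libraries it averaged 3.73 ± 3.65 RPKM with JAK2V617F (n = 5) and 7.87 ± 7.79 RPKM without it (n = 6). These sets differ in Ezh2 genotype as given for Bcl2. Bcl2l1 lies on chromosome 2 from 152780668 to 152831728, minus strand.

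Mcl1 had 14.6, 27.4 and 69.9 RPKM as lowest, median and highest in double-mutant, 15.5, 51.2 and 106 RPKM in Ezh2 loss, 22.4, 53.9 and 122 RPKM in JAK2V617F libraries, and 61.7, 31.1, 53.7, 102 and 58.4 RPKM in control libraries. Double-mutant libraries reached lowest and overlapped every other group. The double mutant differed from control by -0.85 in log2 (SE 0.43, 95% interval -1.73 to 0.029, limma adjusted p = 0.828), with an unadjusted p of 0.0576, and from Ezh2 loss by -0.55 (SE 0.47, adjusted p = 0.818). Number-first libraries alone, 7 double-mutant and 4 control, gave means of 35.2 ± 20.5 RPKM in the double mutant and 62.0 ± 29.4 RPKM in control (SD). JAK2V617F alone differed from control by -0.14 (SE 0.47, adjusted p = 0.999), and the additive JAK2V617F effect was -0.35 (SE 0.29, 95% interval -0.93 to 0.23, adjusted p = 0.947). Mcl1 lies on chromosome 3 from 95658788 to 95663176, plus strand.

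The remaining group comparisons of the first 2 survival genes gave no pass in limma. JAK2V617F against control was -0.20 for Bcl2 (SE 0.45) and -0.31 for Bcl2l1 (SE 0.69), both at adjusted p = 0.999. Double-mutant libraries differed from control ones by -0.32 for Bcl2 (SE 0.42, adjusted p = 0.979) and by 0.11 for Bcl2l1 (SE 0.64, adjusted p = 0.993). From Ezh2 loss libraries they differed by -0.48 for Bcl2 (SE 0.46, adjusted p = 0.852) and by -0.38 for Bcl2l1 (SE 0.70, adjusted p = 0.938). Without the style term these were -1.03 for Bcl2 (unadjusted p = 0.0163, adjusted p = 0.218) and 1.19 for Bcl2l1, so that the Bcl2l1 direction turned. For JAK2V617F against control, the direction turned for Bcl2 without the style term (0.20) or without JAK2V617F replicate 3 (0.10). For Bcl2l1 it turned without control replicate 5 (0.028), and in the Mcl1 case without control replicate 4 (0.038) or JAK2V617F replicate 4 (0.010). In number-first libraries alone the values were 0.10 for Bcl2l1 and 0.071 for Mcl1. The Bcl2l1 value for the double mutant against control fell below 0 without control replicate 1 (-0.11), control replicate 4 (-0.0093) or double mutant replicate 2 (-0.0013). These comparisons share control or Ezh2 loss libraries and are not independent.

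**Figure D2:**
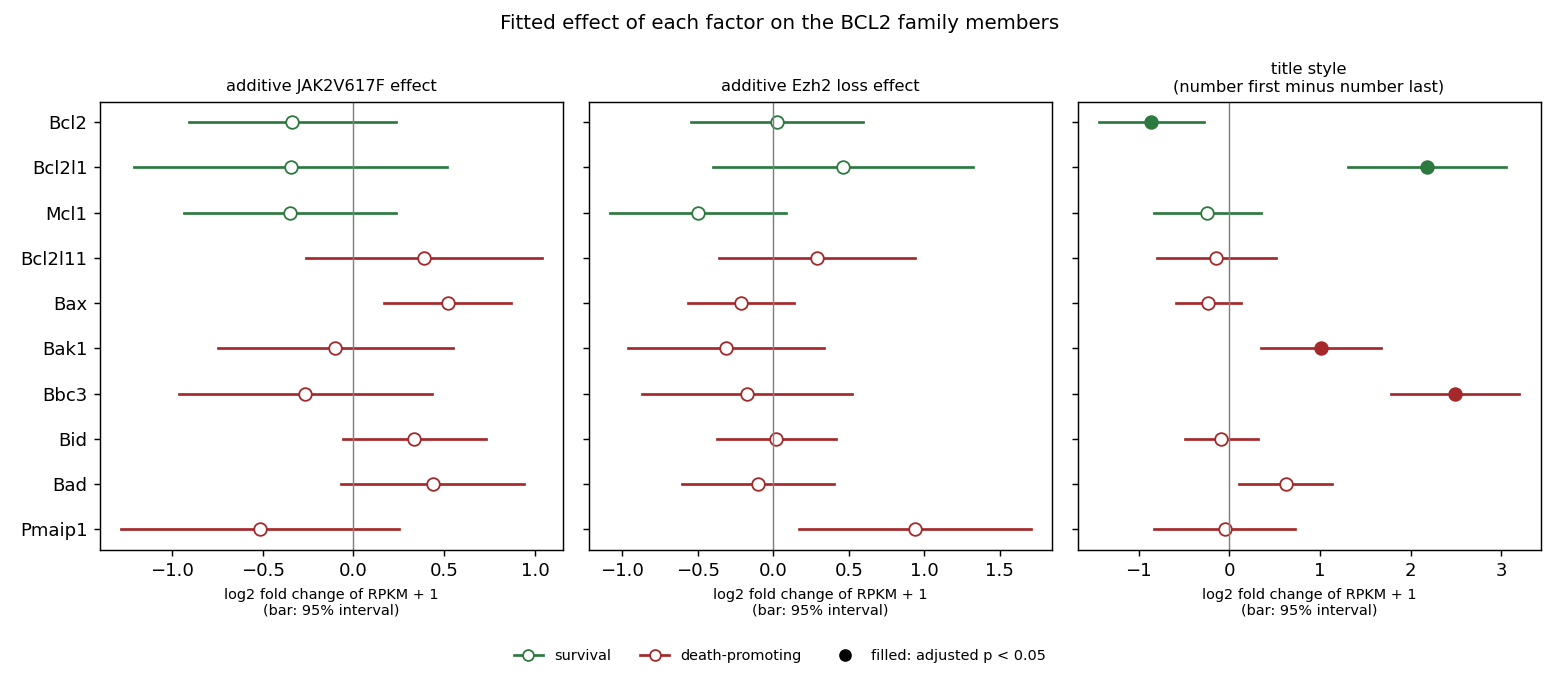
Fitted log2 fold change of RPKM + 1 of each member with its 95% interval for JAK2V617F, Ezh2 loss and title style from the additive fit over 26 libraries; green is survival, red is death-promoting, and filled points passed at adjusted p under 0.05. Only the style panel has filled points: Bcl2, Bcl2l1, Bak1 and Bbc3.

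Among the effectors, Bax gave the lowest unadjusted p of any member for JAK2V617F and did not pass after adjustment. Bax had 80.5, 121 and 153 RPKM as lowest, median and highest in double-mutant, 39.1, 96.9 and 144 RPKM in Ezh2 loss, 99.8, 153 and 230 RPKM in JAK2V617F libraries, and 66.3, 133, 154, 77.6 and 89.1 RPKM in control libraries. The highest library was a JAK2V617F one and the lowest an Ezh2 loss one, with overlap between all groups. Over all libraries Bax averaged 137 ± 36.1 RPKM with JAK2V617F (SD, n = 14) and 99.2 ± 33.7 RPKM without it (SD, n = 12). The additive effect was 0.52 (SE 0.17, 95% interval 0.17 to 0.87), with an unadjusted p of 0.00497 and an adjusted p of 0.859 in limma. An exact two-sided permutation of JAK2V617F within Ezh2 genotype and title style gave p = 0.00278 over 3240 arrangements, unadjusted, for a difference of 0.80. The 5 number-last Ezh2 loss libraries did not enter it, because no double-mutant library has their style. It is thus not a test of the same 26-library effect. The same direction stood in number-first libraries, with 128 ± 26.1 RPKM (n = 9) against 92.9 ± 43.0 RPKM (n = 6), and in number-last libraries, with 154 ± 48.2 RPKM (n = 5) against 106 ± 23.4 RPKM (n = 6), with JAK2V617F against without. These sets also differ in Ezh2 genotype, as given for Bcl2, so they do not show JAK2V617F alone. With the neutrophil covariate the effect was 0.53 (unadjusted p = 0.0045). Taken by group, JAK2V617F libraries exceeded control ones by 0.46 (SE 0.28, adjusted p = 0.999) and double-mutant libraries exceeded Ezh2 loss ones by 0.58 (SE 0.28, adjusted p = 0.636). Without Ezh2 loss replicate 3, the lowest library for Bax, this value was 0.19 (limma adjusted p = 0.953). The interaction was 0.12 (SE 0.44, adjusted p = 0.989). Bax lies on chromosome 7 from 45461697 to 45466898, minus strand.

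Bak1, which works beside Bax, reached 9.58 RPKM in double-mutant, 3.16 RPKM in Ezh2 loss and 6.32 RPKM in control libraries, with medians of 1.90, 1.85, 1.85 and 2.89 RPKM in double-mutant, Ezh2 loss, JAK2V617F and control libraries. The additive JAK2V617F effect on Bak1 was -0.10 (SE 0.32, 95% interval -0.75 to 0.55, limma adjusted p = 0.997).

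The BH3-only genes Bid and Bad had positive fitted JAK2V617F effects that did not pass. Bid had 55.7 to 85.7 RPKM in double-mutant, 28.1 to 98.9 RPKM in Ezh2 loss, 47.4 to 119 RPKM in JAK2V617F and 48.2 to 66.1 RPKM in control libraries. Its additive JAK2V617F effect was 0.34 (SE 0.19, 95% interval -0.057 to 0.73, limma adjusted p = 0.923). Bad had 27.8, 46.2 and 74.9 RPKM as lowest, median and highest in double-mutant and 10.5, 22.4 and 34.9 RPKM in Ezh2 loss libraries. It had 8.86 to 48.7 RPKM in JAK2V617F and 28.4 to 50.5 RPKM in control libraries. Of the double-mutant libraries 5 of 7 lay above the highest Ezh2 loss library for Bad, but the ranges overlapped. The double mutant differed from Ezh2 loss by 0.84 (SE 0.40, unadjusted p = 0.0451, limma adjusted p = 0.626), and by 0.49 without Ezh2 loss replicate 3. The 7 double-mutant libraries averaged 48.1 ± 15.8 RPKM, against 22.9 ± 13.6 RPKM in the 2 number-first Ezh2 loss libraries (SD).

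Bcl2l11, whose product BIM binds every survival member and is a main trigger of death after cytokine loss, had 0 reads in 11 of the 26 libraries. More than 3 reads were counted in 6 of 7 double-mutant, 2 of 7 Ezh2 loss, 4 of 7 JAK2V617F and 3 of 5 control libraries. The double mutant had 1.27, 3.22, 0.106, 2.66, 0.759, 0 and 1.16 RPKM, and Ezh2 loss had 3.75, 0, 0, 0.159, 0, 0 and 0 RPKM. JAK2V617F libraries reached 2.75 RPKM and control libraries 1.76 RPKM. The highest level stood in an Ezh2 loss library, while 5 of the 7 Ezh2 loss libraries had 0 reads. The fitted difference of the double mutant from Ezh2 loss was 1.11 in log2(RPKM + 1), given as a description with no p. Of the 7 libraries that reached 1 RPKM and brought Bcl2l11 into the test, 4 were double mutants. Without these it would not have met the filter on low values, which asks for 5 libraries. It was thus tested only through the group in which it was most often detected. The fitted value was 0.34 with 5 RPKM added and 3.07 with 0.1 added. Depth was 17.3 to 29.2 M reads in the double mutant and 7.82 to 24.9 M in Ezh2 loss, and its part in the result was not tested. Bcl2l11 lies on chromosome 2 from 128126038 to 128162547, plus strand.

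Pmaip1, a p53 target and a BH3-only antagonist of MCL1, had 0 reads in 16 of the 26 libraries. Its RPKM was 4.70, 0.0382, 0, 0, 0.933, 0.0129 and 0 in double-mutant and 0, 4.05, 2.09, 8.19, 0.0482, 0 and 8.75 in Ezh2 loss libraries. In JAK2V617F libraries it was 0.273 RPKM in replicate 4 and 0 in the other 6, and in the 5 control libraries it was 0. More than 3 reads were counted in 2 of 7 double-mutant, 4 of 7 Ezh2 loss, 1 of 7 JAK2V617F and 0 of 5 control libraries, and the floor of 3 reads ranged from 0.0387 to 0.144 RPKM over all libraries. Pmaip1 was tested because exactly 5 libraries reached 1 RPKM, and all 5 carry Ezh2 loss: 1 is a double mutant and 4 are Ezh2 loss alone. It thus met the filter on low values only through the genotype in which it is high, so its fitted values are a description with no p. Libraries at 0 were present in every group.

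The fitted additive Ezh2 loss effect on Pmaip1 was 0.94, Ezh2 loss against control was 1.74, and the double mutant against Ezh2 loss was -1.33, in log2(RPKM + 1). Without Ezh2 loss replicate 4 the last of these was -0.80. With every control library at 0 reads, the fitted size depends on the added 1 RPKM and is no bound: for Ezh2 loss against control it was 0.70 with 5 added and 3.83 with 0.1 added. Neutrophil marker sums were above the highest control library in 11 of the 14 libraries with Ezh2 loss. Pmaip1 had more than 3 reads in 5 of those 11 and in 1 of the other 3. With the neutrophil covariate the fitted additive value was 0.92.

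**Figure D3:**
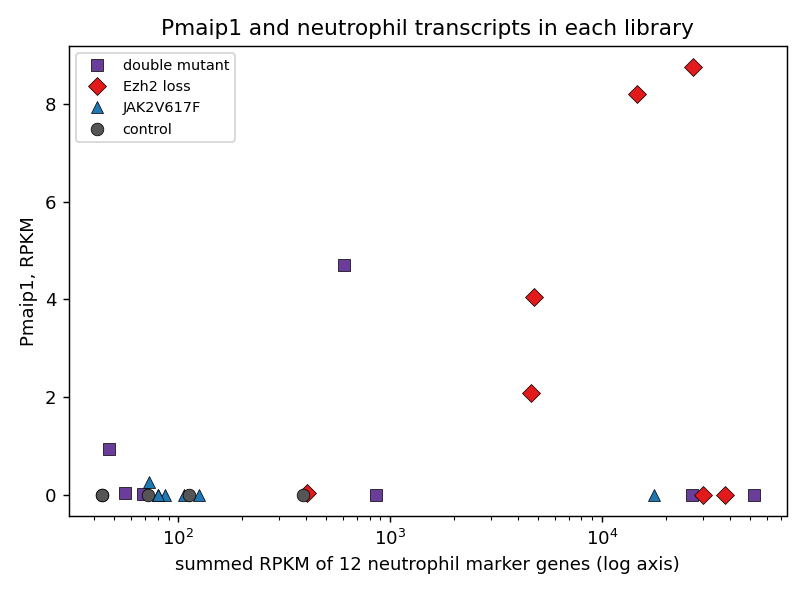
Pmaip1 level in RPKM against the summed RPKM of 12 neutrophil marker genes on a log axis, 1 point per library, by genotype. The highest Pmaip1 values, 8.19 and 8.75 RPKM, are Ezh2 loss libraries, and libraries with 0 reads span neutrophil sums from 43.5 to 52128 RPKM.

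Bbc3 encodes PUMA, a p53 target that binds all survival members. It had 0.295 to 10.7 RPKM in double-mutant, 0 to 12.2 RPKM in Ezh2 loss, 0 to 8.11 RPKM in JAK2V617F and 0 to 13.5 RPKM in control libraries. Levels differed by title style in each of the 3 genotypes that had both styles. Number-first libraries averaged 9.32 ± 4.14 RPKM in Ezh2 loss (n = 2), 6.55 ± 2.22 RPKM in JAK2V617F (n = 2) and 8.35 ± 5.02 RPKM in control (n = 4), and number-last libraries 0.426 ± 0.591 RPKM in Ezh2 loss (n = 5), 0.478 ± 0.646 RPKM in JAK2V617F (n = 5) and 0 in the single control. The style effect was 2.49 (SE 0.35, limma adjusted p = 2.82e-06). Depth was 14.2 to 29.2 M reads in number-first and 7.82 to 18.2 M in number-last libraries, and its part was not tested. Of the 17 libraries with at least 1 RPKM of Bbc3, 14 were number-first, and with no filter on low values the adjusted p was 3.44e-06. Of the number-first libraries 14 of 15 had more than the highest number-last one, 1.30 RPKM, and the exception was double mutant replicate 3 at 0.295 RPKM. The additive JAK2V617F effect on Bbc3 was -0.26 (SE 0.34, 95% interval -0.96 to 0.43, adjusted p = 0.972). Bbc3 lies on chromosome 7 from 16308393 to 16318205, plus strand.

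Bcl2l1 and Bcl2 also differed by title style, in opposite directions, while the third survival gene, Mcl1, did not pass (-0.24, SE 0.29, limma adjusted p = 0.62). As for Bbc3, the part of depth was not tested. Bcl2l1 averaged 22.5 ± 9.25 RPKM in number-first libraries (SD, n = 15) and 5.98 ± 6.35 RPKM in number-last libraries (SD, n = 11), a difference of 2.18 in log2 (SE 0.43, limma adjusted p = 0.000355). Bcl2 averaged 5.40 ± 2.55 RPKM in number-first and 10.7 ± 4.38 RPKM in number-last libraries, a difference of -0.86 (SE 0.28, limma adjusted p = 0.0306). The median of all tested genes differed by 0.19 in the same direction as Bcl2l1. Bcl2l1 exceeded Bcl2 in 15 of 15 number-first and 1 of 11 number-last libraries, the exception being Ezh2 loss replicate 2 with 22.7 against 13.4 RPKM. Log2(RPKM + 1) of Bcl2l1 minus that of Bcl2 was 0.35 to 3.89 in number-first and -3.81 to 0.72 in number-last libraries. In each of the 3 genotypes with both styles, every number-first library had more Bcl2l1 than Bcl2.

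**Figure D4:**
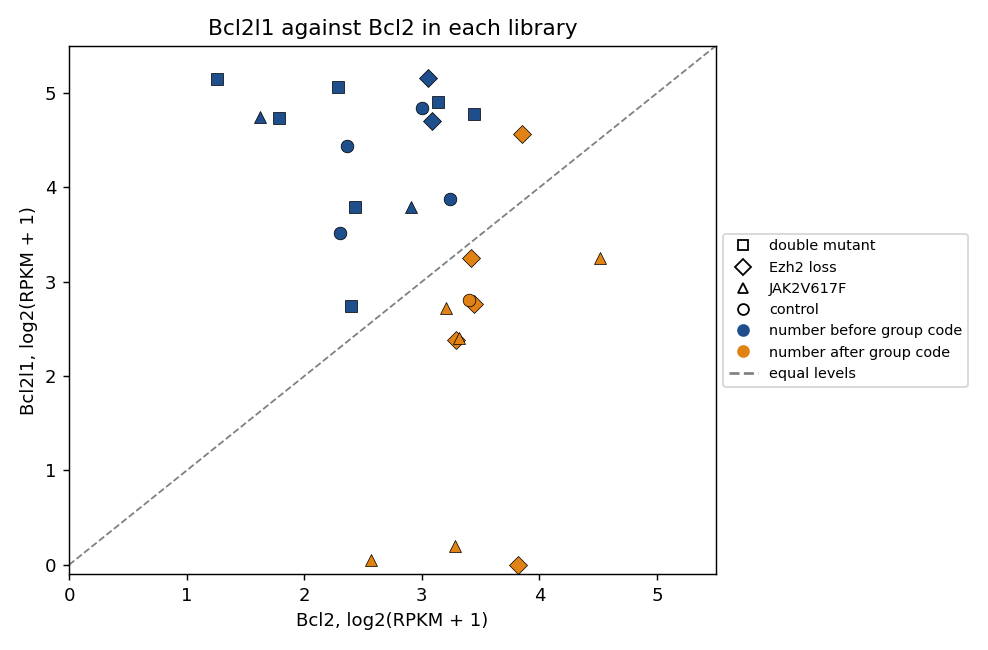
Bcl2l1 against Bcl2 in each library, both as log2(RPKM + 1); colour gives title style, shape gives genotype, and the dashed line marks equal levels. All 15 number-first libraries lie above the line and 10 of 11 number-last libraries below it.

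Bak1 averaged 3.04 ± 2.28 RPKM in number-first and 1.08 ± 0.995 RPKM in number-last libraries, a difference of 1.01 (SE 0.32, limma adjusted p = 0.0257). Bad differed by 0.62 (SE 0.25, adjusted p = 0.0826), which did not pass. Bax, Bid, Mcl1, Bcl2l11 and Pmaip1 gave style differences of -0.23, -0.088, -0.24, -0.15 and -0.053, with adjusted p from 0.395 to 0.947. The Bcl2 call was lost (adjusted p = 0.0565, 0.0579, 0.0686 and 0.0517) without control replicate 1, control replicate 3, JAK2V617F replicate 2 or JAK2V617F replicate 3. The Bak1 call was lost without control replicate 4, JAK2V617F replicate 6 or Ezh2 loss replicate 1 (limma adjusted p = 0.054, 0.0526 and 0.0513) and under quantile normalisation (0.42, adjusted p = 0.432), while Bad passed without Ezh2 loss replicate 2 or 3 (limma adjusted p = 0.0496 and 0.0323).

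The survival and death-promoting sums describe the balance of the family without a test, since the members were chosen for it. Bax, Bid and Bad made up 87.4% to 99.7% of the summed RPKM of the 7 death-promoting genes in every library, so that sum is close to theirs alone. Mcl1 made up 30.0% to 87.1% of the sum of the 3 survival genes. The ratio of survival to death-promoting RPKM had a lowest, median and highest of 0.153, 0.258 and 0.407 in double-mutant, 0.264, 0.358 and 0.727 in Ezh2 loss, 0.0861, 0.300 and 0.572 in JAK2V617F and 0.265, 0.397 and 0.719 in control libraries. The medians of both JAK2V617F genotypes were below those of both others, and the ranges overlapped. Survival RNA summed to 41.8 to 93.0 RPKM in double-mutant, 51.6 to 121 RPKM in Ezh2 loss, 27.4 to 152 RPKM in JAK2V617F and 65.8 to 124 RPKM in control libraries. Death-promoting RNA summed to 249.8 ± 15.3, 185 ± 50.7, 262 ± 34.7 and 206 ± 50.7 RPKM in double-mutant, Ezh2 loss, JAK2V617F and control libraries (SD, n = 7, 7, 7 and 5). In the additive JAK2V617F effect 3 of 3 survival members were negative with a median of -0.35, and 4 of 7 death-promoting members were positive with a median of 0.34, beside a median of -0.0064 over all tested genes. RNA per kilobase does not measure protein, and MCL1, BIM and BAD are known to be controlled largely after transcription.

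**Figure D5:**
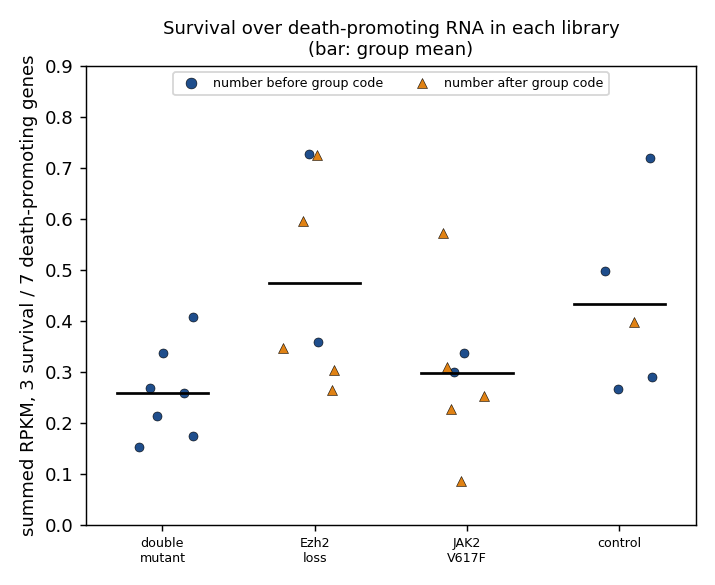
Ratio of the summed RPKM of 3 survival genes to that of 7 death-promoting genes in each library, by genotype; circles are number-first and triangles number-last libraries, and bars are group means. Means were 0.259 in double-mutant, 0.474 in Ezh2 loss, 0.298 in JAK2V617F and 0.434 in control libraries, with overlapping ranges.

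Other genes of the pathway were taken from lists of related roles. In 9 lists including both member lists, 0 genes passed in any of the 8 genotype comparisons. Of the other survival genes, 3 of 5 were tested. Bcl2l2, which encodes BCL-W, averaged 1.38 ± 1.60 RPKM with JAK2V617F (SD, n = 14) and 4.29 ± 3.89 RPKM without it (SD, n = 12). It had 0 reads in 6 of the 26 libraries and reached 13.3 RPKM in Ezh2 loss replicate 5. Its additive JAK2V617F effect was -1.03 (SE 0.45, unadjusted p = 0.0283, limma adjusted p = 0.867). Bcl2a1d, near-identical to its paralogs so that its reads are uncertain, was at 0.25 (SE 0.33). Of the other death-promoting genes, 6 of 8 were tested, with Bmf at -0.39 (SE 0.28) and Bcl2l14 at 0.46 (SE 0.50). Among 18 p53 genes, a list that also holds Bax, Bbc3 and Pmaip1, 6 were positive and 12 negative for JAK2V617F. Their median was -0.15, beside -0.0064 over all tested genes. None passed, and the 1 with an unadjusted limma p under 0.05, Bax, was positive. Trp53inp1 was at -0.86 (SE 0.46). Among 16 apoptosome and caspase genes Birc2, a caspase inhibitor, was at -0.68 (SE 0.37) and Fadd, an adaptor of death receptors, at 0.45 (SE 0.29). Among 15 tested genes of MCL1 and BIM control Dynll1, which tethers BIM, was at -0.37 (SE 0.23) and Foxo3 at -0.52 (SE 0.38). Of 14 JAK2-STAT5 genes, the feedback regulator Socs2 was at 0.48 (SE 0.28, limma adjusted p = 0.928), and of 7 outer membrane genes Vdac1 and Mtch2 were at 0.14 each (SE 0.15 and 0.19).

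By title style 1700 of the 12116 tested genes passed upward and 627 downward, 19.2% in both directions together. This is the background for each list count below. Of the 14 JAK2-STAT5 genes 7 passed upward and 0 downward. Socs1, a feedback inhibitor of JAK kinases, averaged 34.9 ± 20.1 RPKM in number-first and 5.45 ± 4.25 RPKM in number-last libraries (limma adjusted p = 4.90e-06). The survival kinases Pim3 and Pim2 differed by 2.01 (SE 0.39) and 1.6 (SE 0.38), and Cish, another STAT5 target, by 1.13 (SE 0.29). Cycs, which encodes cytochrome c, averaged 16.7 ± 5.49 RPKM in number-first and 2.83 ± 2.06 RPKM in number-last libraries, the 1 apoptosome gene of 16 that passed. In the p53 list 3 of 18 passed upward, Bbc3, Phlda3 (1.85, SE 0.44) and Perp (1.64, SE 0.52), and Aen passed downward (-0.98, SE 0.28). Of the MCL1 and BIM control genes 4 of 15 passed upward, with Bag1, a BCL2-binding cochaperone, at 148 ± 49.2 RPKM in number-first and 40.1 ± 23.7 RPKM in number-last libraries, and Dynll2 and Dynll1 at 1.76 (SE 0.30) and 1.24 (SE 0.23). In the same list 2 of 15 passed downward, with Gsk3b, a kinase that marks MCL1 for breakdown, at 29.4 ± 13.8 RPKM in number-first and 79.8 ± 12.5 RPKM in number-last libraries. Vdac3 and Tomm40, both of the outer membrane, differed by 0.91 (SE 0.13) and 2.04 (SE 0.49), 2 of 7. No gene of the other BCL2 family lists passed by style. The p53 shares were near those of all tested genes in each direction, and the apoptosome share was below. These counts are descriptions, and no list was tested as a set.

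Genes whose residual log2 level, after genotype and title style, ran most like the 3 most abundant members were described over the 26 libraries, which share depth and cell makeup. For Bax they were Brms1 (r = 0.75), Kcnip3 (r = 0.73) and Dph2 (r = 0.71). For Bid they were Arid1b, Dennd6a and Wdr93 (mean 0.419 RPKM, a low level), each at r = 0.67. All are the highest values picked from 12116 tested genes, and what chance alone would give was not computed. For Mcl1 they were Picalm (r = 0.83), a gene listed as Mar-08 (r = 0.77) and Eif1 (r = 0.76).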

How the data were processed

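Groups came from the genotype labels. The label of the double mutant lacks a digit of the mutation's name and was read as JAK2V617F. The authors deposited RPKM values, 1 column per library, 0 unmapped. The submitters' processing notes name mm10/GRCm38, Subread 1.5.0, SAMtools 0.1.19 and STAR 2.4.2a. Settings, gene lengths, strand use and the read total behind RPKM were not given in the labels. Depth was computed from RPKM steps of genes at their GENCODE M21 exon lengths. Reads per member came from that depth and the shortest gene length that gave whole reads in every library within 0.05. Both cover counting only; PCR copies were not removed by molecular identifiers.

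The 12116 genes that reached 1 RPKM in 5 or more libraries were tested with limma 3.58.1 in R 4.3.3 on log2(RPKM + 1), so fold changes of low genes are understated. Variances were moderated with trend and robust settings, tests were two-sided, and p-values were adjusted by Benjamini-Hochberg over all tested genes. The fit held group means and title style, or JAK2V617F, Ezh2 loss and title style without an interaction. Recovery was tested on simulated data. Exact permutations and the sums used Python 3.11.15. Sequences came from RefSeq and coordinates from GENCODE M21, both GRCm38. Replicates were numbered in order of deposition.

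The members, lists and tests were chosen with earlier results of these data known. Values with their test were given for members with unadjusted p under 0.05, for the survival members in comparisons that differ in JAK2V617F, and for list genes that passed, at most 4 a list. Where none passed, up to 2 with the smallest p for JAK2V617F were named. Pmaip1 and Bcl2l11 are the exceptions, described with no p for genotype. Other members' values are descriptions.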

Additional observations from a re-analysis of the deposited data

Results flagged for a closer look

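Single libraries stood apart from the rest of their group in 8 of 39 sets of values (1 member in 1 group each). The measure was the gap to the nearest library over the range, and a further set had every library at 0. Its cutoffs give about 1 in 20 for normal values only. Several sets hold many zeros, so that rate is no reference for 8 of 39. JAK2V617F replicate 2, a number-last library, was highest in its group for Bcl2 at 21.9 RPKM (next 8.98), for Mcl1 at 122 RPKM (next 63.5) and for Bcl2l11 at 2.75 RPKM (next 0.845). Ezh2 loss replicate 1 held nearly all of that group's Bcl2l11, at 3.75 RPKM (next 0.159). Double mutant replicate 7 had Bak1 at 9.58 RPKM (next 2.92), and double mutant replicate 1 had Pmaip1 at 4.70 RPKM (next 0.933). Control replicate 3 had Bad at 50.5 RPKM (next 33.7). JAK2V617F replicate 4 was the one JAK2V617F library with Pmaip1 reads, at 0.273 RPKM against 0 in the others.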

How the results depend on the processing

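The count of members passing stayed within 1.5 times of the main count in all 93 values from other settings and all 234 with 1 library left out. It was 0 for each genotype comparison and 3 to 5 for title style with 1 library left out. Of the named fold changes 252 of 258 under other settings and 608 of 624 with 1 library left out kept direction and side of the threshold. For the exact permutations among the 258 only the direction was compared. No genotype effect had passed at first, so for these the same side means no pass again. Pmaip1 and Bcl2l11, described with no p for genotype, are counted in. Directions turned for Bcl2 in JAK2V617F against control without the style term (0.20; -0.35 to 0.10 with 1 library left out). For Bcl2l1 and Mcl1 in that comparison they turned in number-first libraries alone (0.10 and 0.071; -0.55 to 0.028 and -0.33 to 0.038 with 1 library left out). Bcl2l1 in the double mutant was -0.0053 against control with 0.1 added (-0.11 to 0.40 with 1 library left out) and 1.19 against Ezh2 loss without the style term. The cause was not tested. The Bax effect for JAK2V617F ran from 0.48 to 0.82 under the other settings, with adjusted p from 0.81 to 0.999. No paired analysis was possible because the labels give no pairing between groups and replicate numbers follow the order of deposition. Pmaip1 had 0 reads in 16 libraries and Bcl2l11 in 11, and 3 reads stood for 0.0204 to 0.144 RPKM of these genes.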
